A study of Mus musculus with 24 samples.

Results

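The genes described here encode the subunits, activators, inhibitor and assembly factors of the proteasome. They were chosen by name: every non-control probe of the array whose deposited gene name was Psm, 1 letter from a to g and a number. That gave 63 of 41174 probes, for 42 genes. Psmb8, Psmb9, Psmb10 and Psme1, the immunoproteasome subunits and an interferon-inducible activator chain, are treated apart (5 probes); no probe carried the name Psme2. Of the other 38 genes, 37 gave a signal strong enough to test. Psma8, an α-type subunit of the testis, was not well above background on any of the 24 arrays. A weak signal was also the reason that 1 probe each of Psme4, Psmc2 and Psmd11 was not tested, but those genes have other probes.

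The proteasome is the protease that degrades ubiquitin-tagged proteins. Its barrel, the 20S core, is built from rings of α subunits, which gate the entrance, and rings of β subunits, of which Psmb5, Psmb6 and Psmb7 carry the active sites. The 19S cap, with Psmc ATPases and Psmd non-ATPase subunits, recognises, unfolds and feeds in tagged proteins, and the Psme activators can bind the core in its place. Heat unfolds proteins and raises the load on this system, and CHIP, the product of Stub1, is a ubiquitin ligase that passes chaperone-bound clients to it.

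RNA came from mouse embryonic fibroblasts of day 13.5 embryos from C57BL6 CHIP (+/-) crosses. The cells were CHIP(+/+), called wildtype here, or CHIP(-/-), called null. All were grown with β-mercaptoethanol, and the cultures then spent 30 or 240 min either at 37 °C (controls) or at 43 °C (heat shock). The 8 combinations had 3 arrays each, described in the labels as biological replicates; whether these were separate embryos is not given, so p-values measure the spread between these cultures or RNA samples. On each 2-colour array the sample was labelled with Cy5 and a universal mouse reference RNA with Cy3, without dye swaps. Values are therefore log2 ratios of sample over reference, and a difference is a difference of group means on that log2 scale.

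Between 32.9% and 48.6% of probes on an array were well above background in the sample channel. Heated arrays had smaller shares than controls, without overlap, in null cells at 30 min (32.9% to 36.6% against 39% to 41.7%). The same held at 240 min in wildtype (44.7% to 45.5% against 46.6% to 48.6%) and null cells (44.1% to 44.9% against 46.5% to 48.4%). In wildtype cells at 30 min the ranges, 34.9% to 38.4% and 36.7% to 41.4%, overlapped. The part of this in the heat differences was not tested. Stub1 was lower in null than in wildtype cells by 3.35- to 4.23-fold in the 4 comparisons of genotype, with no overlap between arrays. At least 12 of 13 fibroblast marker genes were detected on all 3 arrays of every group. The arrays lay on 6 slides, and those labelled 30 min and 240 min were on different slides, so time and slide cannot be told apart. The columns of the authors' deposited value table each matched the scanner file of the other time label; times here are those of the scanner files. A gene is called higher or lower, or said to rise or fall, where limma's adjusted p was under 0.05.

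The 250 bases before the start site are shown for 5 genes on which the results below turn, from RefSeq (GRCm38.p6). Psme4 and Psme3 are the activators that moved in opposite directions, Psmb5 and Psmb6 are catalytic subunits, and Psmd9 is an assembly factor that had the largest rise of the 41 tested genes in wildtype cells at 240 min. Capitals mark a CCAAT box in Psme3 (printed as its reverse complement), a TGACNNNGC antioxidant response element in Psmb5, Psmb6 and Psmd9, and, first in the Psmd9 line, an interferon-stimulated response element, GAAA, any 2 bases and GAAA again. The matches shown do not overlap. Coordinates and strand stand before each sequence, which runs 5′ to 3′ along the gene.
Psme4 (chr11:30771525-30771774, plus strand): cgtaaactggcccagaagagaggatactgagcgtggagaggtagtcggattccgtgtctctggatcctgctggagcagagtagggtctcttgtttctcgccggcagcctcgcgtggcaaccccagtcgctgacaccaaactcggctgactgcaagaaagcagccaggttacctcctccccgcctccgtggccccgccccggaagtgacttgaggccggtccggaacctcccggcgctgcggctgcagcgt
Psme3 (chr11:101315963-101316212, plus strand): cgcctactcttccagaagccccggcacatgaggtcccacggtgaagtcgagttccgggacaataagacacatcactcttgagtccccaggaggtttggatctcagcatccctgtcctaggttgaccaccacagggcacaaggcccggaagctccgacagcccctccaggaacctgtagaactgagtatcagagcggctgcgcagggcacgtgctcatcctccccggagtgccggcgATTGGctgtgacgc
Psmb5 (chr14:54617996-54618245, minus strand): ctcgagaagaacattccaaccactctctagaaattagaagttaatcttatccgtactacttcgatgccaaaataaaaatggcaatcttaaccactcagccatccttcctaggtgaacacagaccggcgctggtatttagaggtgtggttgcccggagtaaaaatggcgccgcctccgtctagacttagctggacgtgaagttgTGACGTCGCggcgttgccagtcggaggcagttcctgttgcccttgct
Psmb6 (chr11:70525107-70525356, plus strand): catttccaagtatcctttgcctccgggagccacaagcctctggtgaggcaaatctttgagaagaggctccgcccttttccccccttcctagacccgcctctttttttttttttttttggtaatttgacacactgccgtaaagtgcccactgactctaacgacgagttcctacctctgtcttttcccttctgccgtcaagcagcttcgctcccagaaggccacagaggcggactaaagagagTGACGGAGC
Psmd9 (chr5:123227940-123228189, plus strand): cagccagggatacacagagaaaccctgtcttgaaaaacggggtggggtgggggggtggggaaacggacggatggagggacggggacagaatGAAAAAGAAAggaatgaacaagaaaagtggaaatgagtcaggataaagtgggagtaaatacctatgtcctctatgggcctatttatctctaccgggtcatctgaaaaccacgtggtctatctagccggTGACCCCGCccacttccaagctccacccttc

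These letters were searched on both strands in the 37 windows of the 35 proteasome genes that the RefSeq table held. The heat shock element, searched as GAA, any 2 bases, TTC, any 2 bases and GAA, is the site read by heat shock factors; it was in 0 of the 37 windows and in 0.466% of all 32851 promoter windows of that length. The antioxidant response element was in 5 windows (13.5%, against 10.2% of all): those of Psmb5, Psmb6, Psmc6, Psmd9 and Psmd12. The interferon-stimulated response element was in 3 windows (8.11% against 2.98%), those of Psmb3, Psmd4 and Psmd9, and CCAAT was in 13 (35.1% against 33.8%). A match describes letters only, and the absence of one holds for this window only.

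After 240 min of heat more proteasome genes were higher than lower in both genotypes, by small amounts, though not with arrays centred on their median, as given below. In wildtype cells at 240 min, 16 of 37 genes were higher after heat and 1 was lower, against 18.8% higher and 12.7% lower among all genes tested. In null cells at 240 min, 13 rose and 1 fell, against 24.5% and 14.5% of all genes. At 30 min, 1 rose and 1 fell in wildtype cells (6.77% and 7.79% of all genes), and 9 rose and 2 fell in null cells (22.6% and 12.6%). The shares of the 37 genes were thus 43.2% and 35.1% higher at 240 min, and 2.7% and 24.3% at 30 min, where they lay below or near those of all genes. The median heat difference was 0.14 in wildtype and 0.10 in null cells at 240 min, and 0.02 and 0.06 at 30 min; the medians over all genes tested were 0.06, 0.07, 0.01 and 0.03. At 240 min, 11 genes were called higher in both genotypes, which is 68.8% of the wildtype calls and 84.6% of the null calls. Of the 37 genes, 15 were called in no heat comparison.

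**Figure D1:**
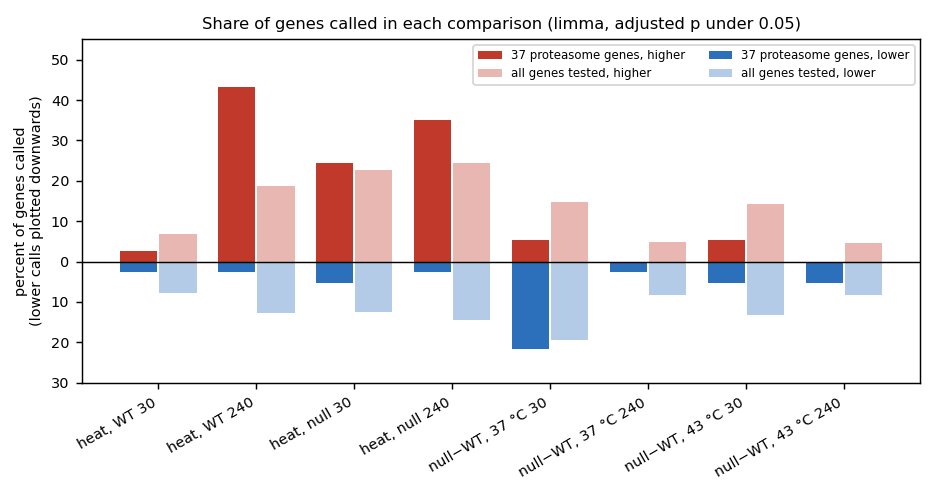
Bars give the percent of genes called higher (up) or lower (down) by limma at an adjusted p under 0.05 in the 4 heat and 4 genotype comparisons, dark for the 37 proteasome genes outside the immunoproteasome group and pale for all 13486 genes tested. The 43.2% called higher after 240 min of heat in wildtype cells stands beside 18.8% of all genes. With median centring in place of loess no proteasome gene was called higher in any of the 4 heat comparisons. Of the calls over all genes, 4.2%, 4.32%, 0.799% and 0.405% were then higher (wildtype 30 and 240 min, null 30 and 240 min).

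These directions depend on how the array's colours were scaled. With each array centred on its median, without the loess correction for brightness, the median of all genes itself shifted to -0.18 in null cells at both 30 and 240 min, and 0 of the 37 genes were called higher in any heat comparison. Set against the all-gene median, that of the 37 genes at 240 min was 0.16 (wildtype) and 0.02 (null) with that scaling, and 0.08 and 0.03 with loess. In null cells at 30 min it turned from 0.03 to -0.17, and 22 of the 37 genes were called lower. Of all 13486 genes tested, 5255 were called there, mostly lower, against 4751 with loess. The share of higher genes among all calls in the series, 46.5%, 59.6%, 64.2% and 62.7% (wildtype 30 and 240 min, null 30 and 240 min), was 4.2%, 4.32%, 0.799% and 0.405% with median centring. With the scanner software's own ratio it was 39.3%, 44%, 46% and 41.7%, and with slide as a block 36.4%, 41.2%, 58.9% and 47.9%.

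Slides limit the counts as well. With slide as a block, 1, 0, 1 and 4 of the 37 genes were higher (wildtype 30 and 240 min, null 30 and 240 min). Calls over all 13486 genes tested fell as well, from 1964, 4243, 4751 and 5261 in either direction to 453, 614, 2688 and 2751. Of the latter, 36.4%, 41.2%, 58.9% and 47.9% were higher. The fit with slide as a block rests on 1 array of one treatment against 3 of the other on a slide. Within the single slide that holds both treatments of a comparison, the 37 genes' median difference was 0.12 in wildtype cells at 240 min, 0.04 in null cells at 30 min and 0.11 in null cells at 240 min, and that of all genes 0.04, 0.04 and 0.07; these arrays are part of the same comparisons. Leaving out single arrays moved the counts too: wildtype at 240 min had 9 higher genes without control replicate 2 and 10 without heat replicate 2. Null at 240 min had 8 without heat replicate 2 and 7 without heat replicate 3, and null at 30 min had 4 without control replicate 1 and 4 without heat replicate 2. The 2 lower genes of null cells at 30 min became 4 without control replicate 2. Calls over all genes with single arrays left out are not given here.

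Psme4, the PA200 activator, had by its brightest probe the largest heat differences of all 41 tested proteasome genes and was lower in each of the 4 heat comparisons. In wildtype cells at 30 min its log2 ratios were -0.21, -0.18 and -0.33 at 37 °C and -0.84, -0.87 and -0.91 after heat. In null cells at 30 min they were -0.43, -0.39 and -0.30 at 37 °C and -1.14, -1.04 and -0.99 after heat. All heated arrays lay below all control arrays in both genotypes. At 240 min the wildtype controls were at -0.29, -0.31 and -0.31 and the heated arrays at -0.63, -0.80 and -0.94. The null controls at 240 min were at -0.31, -0.41 and -0.34, with heated arrays at -0.70, -0.98 and -1.12. The groups again did not overlap, and the heated arrays at 240 min were spread more widely (SD 0.16 and 0.22, n = 3) than the controls (SD 0.01 and 0.05, n = 3).

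Psme4 fell by 0.63 ± 0.08 (SE) in wildtype cells at 30 min, a 1.55-fold decrease (limma adjusted p = 8.6e-06), and by 0.68 ± 0.08 in null cells (1.61-fold, adjusted p = 1.5e-06). At 240 min it fell by 0.48 ± 0.08 in wildtype (1.40-fold, adjusted p = 6.7e-05) and by 0.58 ± 0.08 in null cells (1.49-fold, adjusted p = 4.9e-06). Within slides the differences were -0.55, -0.33, -0.77 and -0.59 (wildtype 30 and 240 min, null 30 and 240 min), and with slide as a block the wildtype difference at 240 min, -0.33, was no longer past the threshold.

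The Psme4 values come from its brightest probe, A_51_P166198, which the array's annotation ties to the transcript record BC004575. The 2 other tested probes, tied to NM_134013, were dimmer (mean log2 brightness 6.87 and 5.97, against 10.4) and changed less. Probe A_52_P344897 gave -0.12, -0.03, -0.24 and -0.08 (wildtype 30 and 240 min, null 30 and 240 min), of which the null difference at 30 min was called. Probe A_52_P111438 gave 0.06, -0.14, -0.06 and -0.12, with no call. The mean of the 3 probes was called in each heat comparison, at -0.23, -0.22, -0.33 and -0.26. It includes the brightest probe, so it is not a separate result. Whether a fall was called, and how large it was, therefore depends on the probe. Whether the probes report the same transcripts was not tested.

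**Figure D2:**
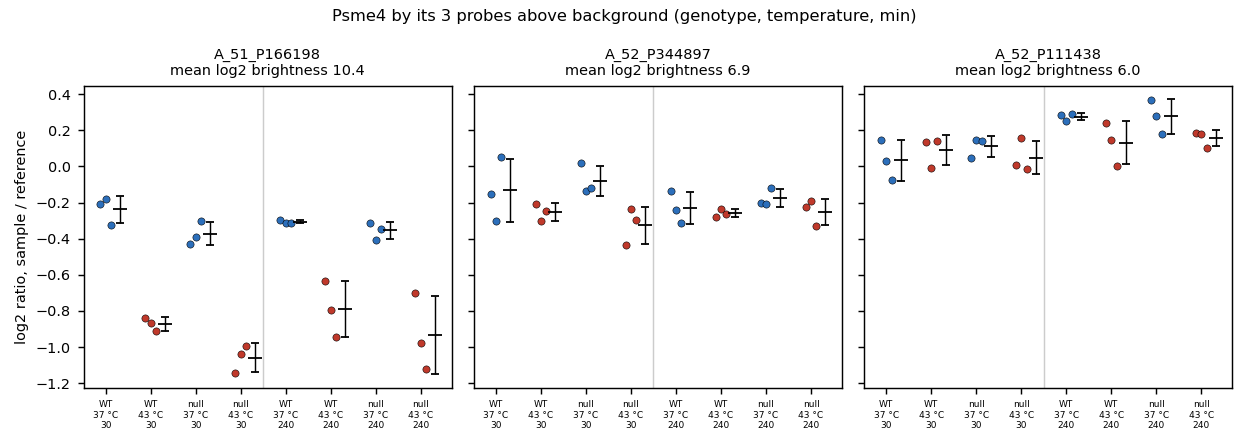
Each panel shows 1 of the 3 Psme4 probes above background, with log2 ratio of sample over reference on the vertical axis and the 8 groups (genotype, temperature, min) on the horizontal; points are arrays, blue at 37 °C and red at 43 °C, and the bar beside them is mean ± SD (n = 3). Heated arrays of the brightest probe (left) lie below their controls in every pair of groups. Those of both dimmer probes overlap their controls in wildtype cells at 30 min and in null cells at 240 min, among other pairs.

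Psme3, the PA28γ activator of the nucleus, rose in each of the 4 heat comparisons. Its wildtype log2 ratios at 30 min were -0.42, -0.32 and -0.43 at 37 °C and -0.11, -0.14 and -0.17 after heat. At 240 min they were -0.43, -0.40 and -0.45 at 37 °C and -0.25, -0.09 and -0.12 after heat. The null arrays ran from -0.34 to -0.18 (30 min, 37 °C) against -0.13 to -0.03 after heat, and from -0.35 to -0.26 (240 min, 37 °C) against -0.13 to 0.05. Heated and control arrays did not overlap in any of the 4 pairs of groups. The rise was 0.25 ± 0.06 (SE; adjusted p = 0.006) in wildtype cells at 30 min and 0.28 ± 0.06 (adjusted p = 0.0011) at 240 min. In null cells it was 0.16 ± 0.06 (adjusted p = 0.037) and 0.29 ± 0.06 (adjusted p = 0.00064). With median centring the null differences were -0.17 at 30 min and -0.042 at 240 min, against a median of all genes of -0.18 at both times. Psme3 has a single probe.

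Psmf1, the PI31 inhibitor of the 20S core, rose in null cells, by 0.28 ± 0.07 (SE) at 30 min (adjusted p = 0.0018) and by 0.17 ± 0.07 at 240 min (adjusted p = 0.037). At 30 min its null arrays were at -0.07, -0.06 and -0.15 before heat and at 0.18, 0.17 and 0.19 after it, without overlap, whereas the groups at 240 min overlapped. With median centring the differences were 0.13 at 30 min and -0.13 at 240 min, and neither was called. The wildtype differences, 0.17 and 0.10, were not called. The other Psmf1 probes gave -0.06 and 0.06 in null cells at 30 min.

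**Figure D3:**
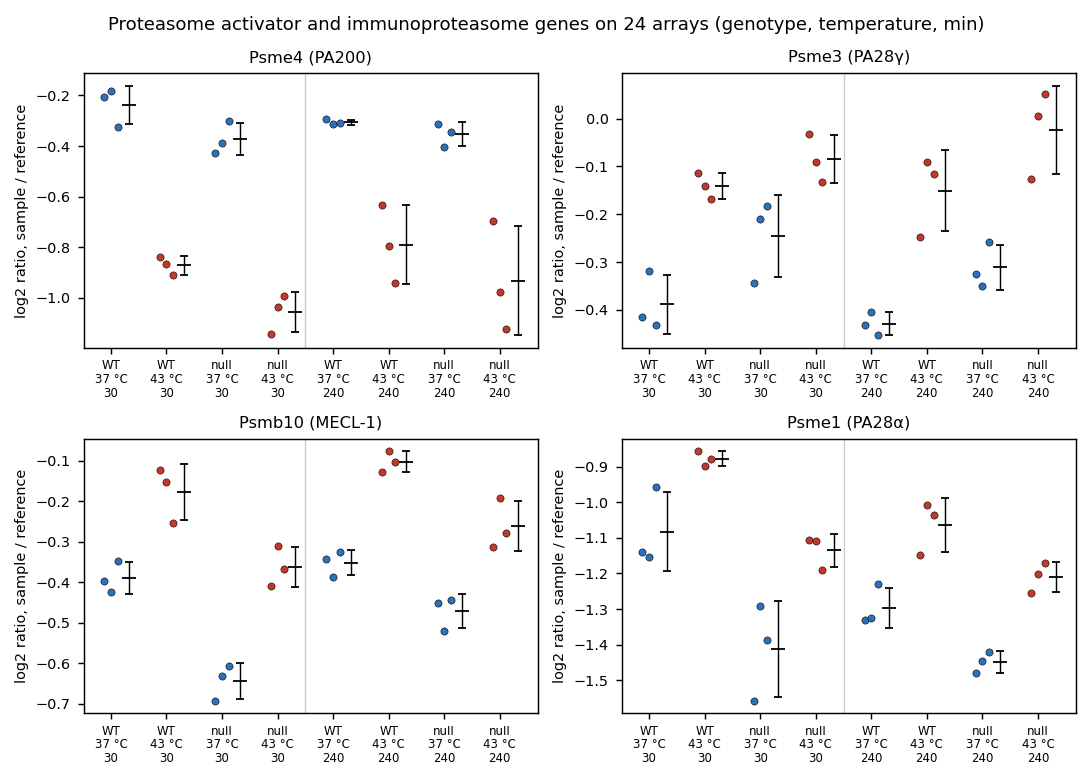
Log2 ratio of sample over reference on each of the 24 arrays for Psme4, Psme3, Psmb10 and Psme1, by group (genotype, temperature, min); points are arrays, blue at 37 °C and red at 43 °C, and the bar beside them is mean ± SD (n = 3). Psme4 (brightest probe) falls from control to heat in all 4 pairs of groups and the other 3 genes rise. With median centring the null differences of these other 3 genes at both times were negative, and the median of all genes was -0.18 at both.

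Among the β subunits of the core (7 genes), 5 rose after heat in wildtype cells at 240 min, 4 in null cells at 30 min and 3 in null cells at 240 min, with none falling; none was called in wildtype cells at 30 min. Their median difference was 0.18, 0.16, 0.15 and 0.04 in that order, and with median centring all 7 were negative in both null comparisons. Psmb1, Psmb7, Psmb5 and Psmb6 account for most of these calls. Psmb7, the trypsin-like catalytic subunit, ran from -0.64 to -0.58 in null controls at 240 min and from -0.45 to -0.26 after heat, a rise of 0.29 ± 0.06 (SE; adjusted p = 0.00049; -0.041 with median centring). Psmb1, a non-catalytic subunit, rose in wildtype cells at 240 min by 0.24 ± 0.06 (adjusted p = 0.0044) and in null cells by 0.22 ± 0.06 at 30 min and 0.25 ± 0.06 at 240 min (adjusted p = 0.0059 and 0.002). Psmb5, the chymotrypsin-like subunit, was at 0.44, 0.41 and 0.51 in wildtype controls at 240 min and at 0.63, 0.70 and 0.64 after heat. Psmb6, the caspase-like subunit, was at 0.21, 0.21 and 0.18 and then at 0.27, 0.39 and 0.37. The heated arrays of both lay above their controls, and both rose (0.20 ± 0.06, adjusted p = 0.011, and 0.14 ± 0.05, adjusted p = 0.046).

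Psmb2, another non-catalytic β subunit, stood at 1.04, 0.83 and 0.95 in wildtype controls at 240 min and at 1.23, 1.23 and 1.14 after heat. It rose by 0.26 ± 0.07 (SE; adjusted p = 0.0061), a call lost without control replicate 2, and in the authors' deposited table, whose column of that label matches the scanner file of the other time, the difference was -0.027. Psmb3 and Psmb4 were not called in any heat comparison.

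The α subunits form the outer rings of the core. Of 7 tested, 2 rose in wildtype cells at 240 min (Psma6 and Psma7), 3 in null cells at 30 min (Psma2, Psma4 and Psma7) and 2 in null cells at 240 min (Psma6 and Psma7); with median centring all 7 were negative in null cells at 30 min and 6 at 240 min. Psma7 in null cells at 30 min was at 0.20, 0.21 and 0.29 at 37 °C and at 0.44, 0.59 and 0.45 after heat, a rise of 0.26 ± 0.06 (SE; adjusted p = 0.0023) without overlap; with median centring it was -0.15. Psma1, Psma3 and Psma5 were not called after heat. With median centring 1 of the 7 α subunits lay above the median of all genes in null cells at 30 min, and 4 did at 240 min.

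In the 19S cap, 3 of 6 ATPases rose in wildtype cells at 240 min (Psmc3, Psmc4, Psmc5) and 3 in null cells (Psmc1, Psmc3, Psmc5), and none was called at 30 min in either genotype; with median centring all 6 were negative in null cells at 240 min. The differences of those called lay between 0.17 and 0.23. With median centring 4 of the 6 ATPases lay above the median of all genes in null cells at 240 min. Of the 11 non-ATPase subunits, Psmd1, Psmd8 and Psmd14 rose in wildtype cells at 240 min, and Psmd14, the deubiquitinase of the lid, was the one that rose in null cells (0.17 ± 0.06 SE, adjusted p = 0.027); with median centring all 11 were negative there, Psmd14 at -0.050. Psmd8 went from 0.75, 0.79 and 0.86 to 1.07, 1.07 and 1.02 in wildtype cells, a rise of 0.25 ± 0.07 (SE; adjusted p = 0.007) without overlap. Psmd6, a lid subunit, was the only one of the 11 called lower after heat, by -0.23 ± 0.06 in null cells at 30 min (adjusted p = 0.0044). With median centring 9 of the 11 were called lower in that comparison. Of the 13486 genes tested, 5255 were called there with that scaling, 0.799% of them higher. In null cells at 240 min 2 of the 11 lay above the median of all genes with median centring.

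Of the 3 tested chaperones that assemble the 19S base, Psmd9 and Psmd10 rose at 240 min in both genotypes and Psmd5 in neither. With median centring all 3 were negative in null cells at 240 min, and 2 of them lay above the median of all genes there. Psmd9 was at 0.28, 0.18 and 0.29 in wildtype controls at 240 min and at 0.52, 0.58 and 0.57 after heat. All heated arrays were higher, and the rise was 0.31 ± 0.06 (SE; adjusted p = 0.00055). Its dimmer probe gave 0.12 there. Psmd10, also known as gankyrin, went from 0.21, 0.08 and 0.29 to 0.46, 0.46 and 0.43 in null cells, a rise of 0.26 ± 0.06 (adjusted p = 0.0012; -0.050 with median centring). The array also carried chaperones of core assembly under older names, matched by RefSeq accession and outside the naming rule. Psmg1 and Psmg3 were higher at 240 min in wildtype (0.35 and 0.41) and null cells (0.24 and 0.18), and Psmg2 was not called (0.03 and -0.09). Of all genes, 18.8% (wildtype) and 24.5% (null) were called higher there. Values of the Psmg genes with median centring or slide as a block are not given here.

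**Figure D4:**
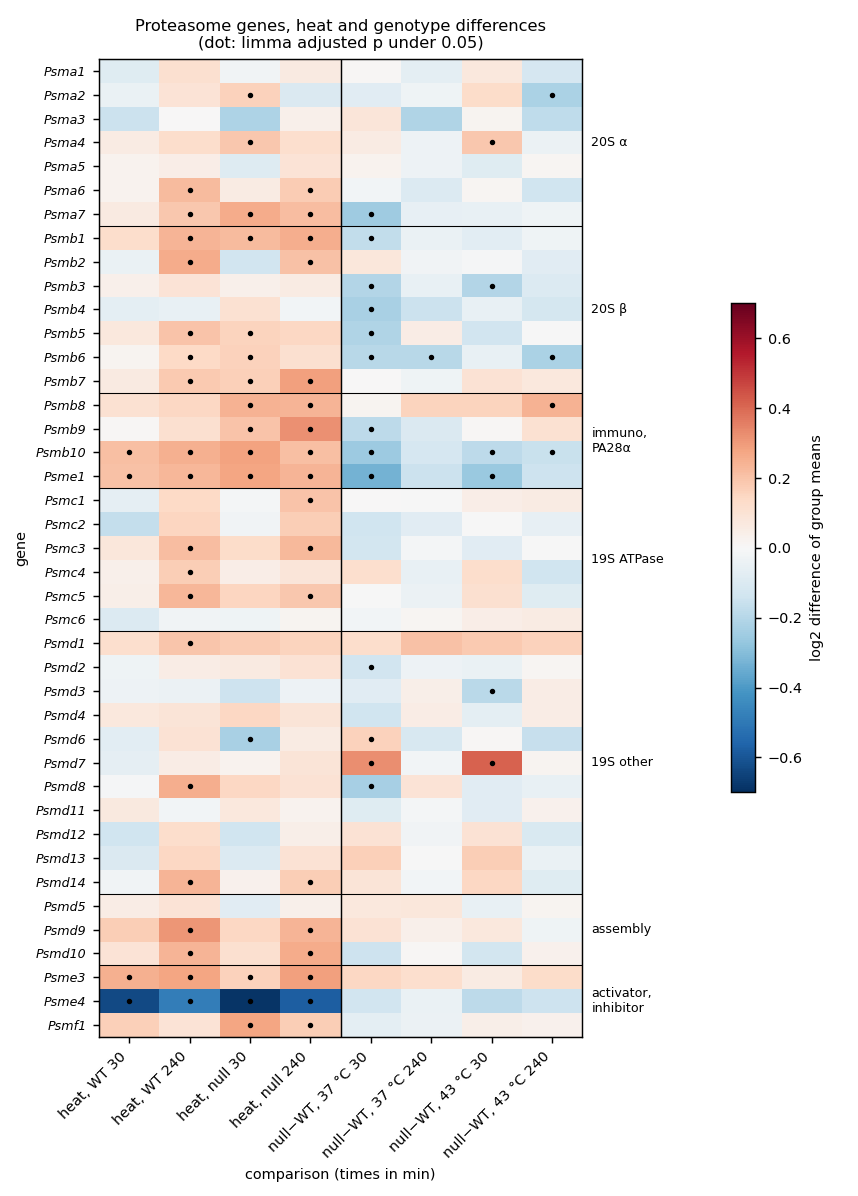
Colour gives the log2 difference of group means for the 41 tested proteasome genes (rows, grouped by role) in 4 heat and 4 genotype comparisons (columns), red for higher and blue for lower, and a dot marks limma's adjusted p under 0.05. Psme4 is the 1 gene that is blue with a dot in all 4 heat columns; most other dots there are red, and with median centring none of the 37 genes outside the immunoproteasome group was called higher after heat.

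The immunoproteasome subunits replace the catalytic β subunits in interferon-treated and immune cells, and Psme1 encodes PA28α, which goes with them in antigen processing. All 4 genes rose after heat in null cells at both times, and Psmb10 and Psme1 rose in wildtype cells as well; with median centring none of the 4 was called and some of the null differences were negative, as given below. The shares called higher among all genes were 6.77% and 18.8% in wildtype and 22.6% and 24.5% in null cells (30 and 240 min). With slide as a block 0 of the 4 were called in wildtype cells at either time, 3 in null cells at 30 min (Psmb8, Psmb10 and Psme1) and 2 at 240 min (Psmb8 and Psmb9). Of the 13486 genes tested, that fit called 453, 614, 2688 and 2751 (wildtype 30 and 240 min, null 30 and 240 min). Psmb10, the MECL-1 subunit, had wildtype log2 ratios of -0.40, -0.42 and -0.35 at 30 min and 37 °C against -0.12, -0.15 and -0.25 after heat. In null cells the arrays were at -0.69, -0.63 and -0.61 against -0.41, -0.31 and -0.37. Heated arrays were above their controls in both genotypes, with rises of 0.21 ± 0.05 (SE; adjusted p = 0.0082) and 0.28 ± 0.05 (adjusted p = 0.00027). At 240 min Psmb10 rose by 0.25 ± 0.05 in wildtype and 0.21 ± 0.05 in null cells (adjusted p = 0.001 and 0.0033), again without overlap.

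Psme1 was at -1.14, -1.15 and -0.96 in wildtype controls at 30 min and at -0.86, -0.90 and -0.88 after heat. In null cells it was at -1.56, -1.29 and -1.39 and then at -1.11, -1.11 and -1.19. The rises were 0.21 ± 0.06 (SE; adjusted p = 0.031) and 0.28 ± 0.06 (adjusted p = 0.0016), and at 240 min 0.23 ± 0.06 and 0.24 ± 0.06 (adjusted p = 0.0079 and 0.0051). None of these pairs of groups overlapped. The wildtype call at 30 min was lost on leaving out 5 of the 6 arrays in turn, all but control replicate 3. Within the slide shared by the treatments it was 0.08, against 0.21 over all arrays.

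Psmb8 (LMP7) rose in null cells by 0.24 ± 0.07 (SE) at both times (adjusted p = 0.0061 at 30 min and 0.0067 at 240 min). Its null arrays at 240 min were at -0.51, -0.56 and -0.61 at 37 °C and at -0.37, -0.25 and -0.34 after heat. Psmb9 (LMP2) rose in null cells by 0.32 ± 0.07 at 240 min (adjusted p = 0.00079), from -1.03, -1.07 and -0.97 to -0.81, -0.68 and -0.62, and by 0.20 ± 0.07 at 30 min (adjusted p = 0.024). The latter was not called without control replicate 1, control replicate 3, heat replicate 2 or heat replicate 3. At 30 min Psmb9 was well above background on 0 of 3 arrays in null controls and on 0 of 3 in heated null cells. At 240 min it was so on 1 of 3 null controls and on 3 of 3 heated null arrays. In wildtype cells the Psmb8 and Psmb9 differences, 0.11 and 0.01 at 30 min and 0.15 and 0.11 at 240 min, were not called. With median centring the null differences of Psmb10, Psme1 and Psmb8 at 240 min were -0.065, -0.052 and -0.019, and those of Psmb10 and Psme1 at 30 min -0.15 and -0.13. The median of all genes was then -0.18 at both times, and all 4 genes of the group lay above it.

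Whether the heat response differed between genotypes was tested directly. Of the 41 genes, 0 had an interaction of genotype and heat past the threshold at 30 or at 240 min in limma (2 and 2 at an unadjusted p under 0.05), against 0.445% and 0% of all genes. The genes called in null cells and not in wildtype cells are thus not shown to respond differently. The heat differences of the 2 genotypes, which share no arrays but the same reference RNA, had a Pearson r across the 41 genes of 0.863 at 30 min and 0.877 at 240 min. Without Psme4 these were 0.745 and 0.727, and over all genes tested 0.744 and 0.888. Genes are not independent replicates, so this is a description. The differences at 240 min against those at 30 min gave 0 calls among the 41 genes in either genotype with limma (10 in wildtype and 6 in null cells at an unadjusted p under 0.05), against 1.26% and 2.37% of all genes.

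No slide held both genotypes of any of the 4 genotype comparisons, so each genotype difference is also a difference between slides. The fit with slide as a block links the genotypes only through slides shared with other groups. In control cells at 30 min, 8 of 37 genes were lower in null than in wildtype cells and 2 were higher (21.6% and 5.41%), against 19.4% and 14.7% of all genes. The higher genes were Psmd6 (0.16) and Psmd7. Of the lower, 5 were β subunits: Psmb1 (-0.17), Psmb3 (-0.20), Psmb4 (-0.23), Psmb5 (-0.21) and Psmb6 (-0.19); with median centring all 5 were positive, between 0.04 and 0.13. Psmd2, a subunit of the base, was lower by -0.13 (0.13 with median centring). Psma7 was lower by -0.25 ± 0.06 (SE; adjusted p = 0.0027), at 0.20 to 0.29 in null against 0.44 to 0.52 in wildtype controls, without overlap (0.047 with median centring). Psmd8 was lower by -0.23 ± 0.07 (adjusted p = 0.0093), at 0.97, 0.98 and 1.21 against 1.27, 1.36 and 1.22. Its call was lost without wildtype replicate 2, null replicate 1 or null replicate 2, and without null replicate 2 the count of 8 fell to 5. The count of 2 higher genes fell to 1 without wildtype replicate 3, null replicate 2 or null replicate 3. The heat comparison in null cells at 30 min uses the same null controls. The β subunits' heat differences there were 0.22 (Psmb1), 0.04 (Psmb3), 0.11 (Psmb4), 0.16 (Psmb5) and 0.16 (Psmb6). With slide as a block or with median centring none of the 37 genes was called lower in null controls. Over all genes 1639 and 2867 were then called between the controls at 30 min, 40% and 66.9% of them higher. With median centring the median of all genes between these controls was 0.04.

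Psmd7, a lid subunit, was higher in null cells at 30 min in both treatments. Its controls were at 0.94, 0.87 and 0.84 in null and 0.76, 0.45 and 0.46 in wildtype cells, and its heated arrays at 0.95, 0.88 and 0.89 against 0.34, 0.47 and 0.68. The groups did not overlap, with differences of 0.32 ± 0.08 (SE; adjusted p = 0.0019) and 0.41 ± 0.08 (adjusted p = 0.00018). A second probe of nearly the same brightness gave 0.16 and 0.09, and a dimmer one -0.08 and 0.00021. Psmd7 did not differ past the threshold at 240 min (-0.02 and 0.02).

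At 240 min the genotypes differed in few proteasome genes. In controls Psmb6 was lower in null cells by -0.19 ± 0.05 (SE; adjusted p = 0.015), 1 of 37 genes, against 8.26% lower and 4.8% higher among all genes; the call was lost without wildtype replicate 1 or 2. After heat Psmb6 (-0.22 ± 0.05, adjusted p = 0.0049) and Psma2 (-0.22 ± 0.06, adjusted p = 0.014) were lower, against 8.3% lower and 4.66% higher among all genes. Psmb6 was at 0.10 to 0.13 in heated null cells and at 0.27 to 0.39 in heated wildtype cells. Psma2 was at 0.61, 0.64 and 0.76 against 0.88, 0.94 and 0.86, and its call was lost without wildtype replicate 2, null replicate 1 or null replicate 2. The count of 2 was 1 without wildtype replicate 2 or null replicate 2.

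In heated cells at 30 min Psma4 and Psmd7 were higher and Psmb3 and Psmd3 lower in null cells, 2 of 37 genes each way, against 14.2% higher and 13.3% lower among all genes. Psma4 was at 0.45, 0.49 and 0.44 in null and 0.35, 0.29 and 0.19 in wildtype cells, a difference of 0.19 ± 0.06 (SE; adjusted p = 0.014) that was not called without wildtype replicate 3 or null replicate 2. Psmb3 was at 0.63, 0.71 and 0.59 against 0.84, 0.78 and 0.93 (-0.21 ± 0.06, adjusted p = 0.0064). Psmd3, a lid subunit, was at 0.11, 0.12 and 0.02 against 0.27, 0.16 and 0.39 (-0.19 ± 0.06, adjusted p = 0.027), and its call was lost without wildtype replicate 1 or 3 or null replicate 3. None of these pairs of groups overlapped. The count of higher genes was 5 without null replicate 1 and 1 without null replicate 2, and that of lower genes 1 without wildtype replicate 1 or 3 or null replicate 3.

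The immunoproteasome group was lower in null controls at 30 min, with Psme1 at -0.33 ± 0.06 (SE; adjusted p = 0.00017), Psmb10 at -0.25 ± 0.05 (adjusted p = 0.0004) and Psmb9 at -0.18 ± 0.07 (adjusted p = 0.037), while Psmb8 differed by 0.02. None of these 3 was called with median centring or with slide as a block, where the Psmb9 difference was 0.088. The shares over all genes were 19.4% lower and 14.7% higher. The Psmb9 call was lost without wildtype replicate 1 or 3 or null replicate 1 or 3. Psmb9 was well above background on 3 of 3 of these wildtype controls and on 0 of 3 null controls, so its lower group lay near background. After heat at 30 min Psme1 (-0.26) and Psmb10 (-0.19) were lower in null cells, the latter not without wildtype replicate 1. At 240 min the heated null cells had more Psmb8 (0.25 ± 0.07, adjusted p = 0.013) and less Psmb10 (-0.16 ± 0.05, adjusted p = 0.048). The Psmb8 call was lost without wildtype replicate 1 or null replicate 2, and that of Psmb10 without any single array except null replicate 2. With slide as a block, and with median centring, none of the 4 genes was called between the genotypes after heat at either time.

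Macrophages express these immunoproteasome genes strongly, so their markers were measured too. The mean log2 ratio of 16 macrophage markers was -0.36 to -0.34 in wildtype controls at 30 min, -0.88 to -0.78 after heat, -1.14 to -1.04 in null controls and -1.09 to -0.96 in heated null cells. At 240 min it was -1.32 to -1.22, -1.16 to -1.09, -1.65 to -1.57 and -1.45 to -1.33 in the same order. In the 8 groups, 3 to 11 of the 16 were detected on all 3 arrays and 3 to 7 on none. They were highest in the wildtype controls at 30 min and lower in null cells. Between controls at 30 min, 11 of 11 tested macrophage markers were called lower in null cells. So were 6 of 7 neural, 2 of 4 endothelial, 2 of 5 epithelial and 1 of 6 muscle markers, against 19.4% of all genes. Of 13 fibroblast markers, 1 was lower and 7 were higher. In controls at 240 min, where none of the 4 immunoproteasome-group genes was called, 7 of 11 macrophage markers were lower in null cells. After heat 4 (30 min) and 6 (240 min) of the 11 were lower in null cells, and 0 were higher in any of these comparisons. Heat against control gave 0, 2, 4 and 8 macrophage markers higher and 7, 0, 1 and 0 lower (wildtype 30 and 240 min, null 30 and 240 min). The part of any of these cell types in the differences of Psme1, Psmb10 and Psmb9 was not tested. In bulk RNA, fewer cells of a type and less RNA per cell cannot be told apart.

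Other genes of the pathway did not move as one. Of 31 tested ubiquitin and proteasome-associated genes outside the Psm names, 4 rose and 4 fell after heat in wildtype cells at 30 min, 1 and 5 at 240 min, and in null cells 7 and 7 at 30 min and 3 and 7 at 240 min. As shares these are 12.9% and 12.9%, 3.23% and 16.1%, 22.6% and 22.6%, and 9.68% and 22.6%, against 6.77% and 7.79%, 18.8% and 12.7%, 22.6% and 12.6%, and 24.5% and 14.5% of all genes. Ube3c, a ubiquitin ligase that works at the proteasome, fell in each comparison, by -0.31, -0.32, -0.34 and -0.34 (wildtype 30 and 240 min, null 30 and 240 min). Ube3a, the E6AP ligase, fell by -0.87 in wildtype and -0.89 in null cells at 240 min and by -0.34 in null cells at 30 min. Nfe2l2, the factor that binds antioxidant response elements, fell in wildtype cells at 30 min (-0.20) and in null cells at both times (-0.39 and -0.24). Of 18 tested interferon and antigen-processing genes, 1 and 2 rose in wildtype cells at 30 and 240 min and 6 and 5 in null cells (5.56%, 11.1%, 33.3% and 27.8%, against 6.77%, 18.8%, 22.6% and 24.5% of all genes), with none called lower in any heat comparison.

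Of the 37 genes, 22 differed between the control cells labelled 240 and 30 min in wildtype (10 higher, 12 lower) and 15 in null cells (9 and 6), against 27.9% higher and 35.6% lower of all genes in wildtype and 19% and 29.6% in null cells. The slides differ in the same way, so these are not read as changes with time. In those comparisons 2 genes had probes called in opposite directions: Psmb3 in null cells (0.20 and -0.20) and Psmd7 in wildtype cells (0.25 and 0.20 against -0.23). No gene with over 1 tested probe, of 14, was called both ways in a heat or genotype comparison.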

How the data were processed

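The authors deposited scanner output of 24 arrays from Agilent Feature Extraction 9.1.3.1, per the file headers; mean and background signals are linear intensity values, and the deposited LogRatio is the log10 of Cy5 over Cy3. The authors' deposited value table holds log10 ratios divided by the natural log of 2, found by comparison with the scanner files, and was turned to log2 here, with heat columns relative to the mean control; its 24 columns have medians from -0.0462 to 0.023 and each matched the other time label's scanner file (r at least 0.9975; highest r for the same label 0.9004).

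From the intensity values, background was corrected by normexp (offset 50), ratios were normalized by loess within arrays with control spots at weight 0, 333 outlier spots were dropped, and spots of a probe averaged (limma 3.58.1, R 4.3.3). A gene was represented by its brightest probe and tested where Cy5 was well above background on all 3 arrays of a group: 13486 genes. Group means of all 24 arrays were fitted with lmFit and eBayes, with Benjamini-Hochberg adjustment over all genes in each comparison. The array number limits the precision. The fit was also run on simulated data with independent errors and no slide or brightness effects, so that run does not bear on those effects.

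Members and lists were chosen with earlier results of these data known. Array values are given for the apart genes and, per heat or genotype comparison, the 5 called members of largest difference without overlap; related genes are named if called in 3 of 4 heat comparisons. Psmg genes, Psmb1, Psmb5 and genes of a listed role were named after their values were seen. Replicate numbers did not pair the samples. Alternatives are in the closing section. Probe and protein sequences were not used here.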

Additional observations from a re-analysis of the deposited data

How the results depend on the processing

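Counts below are of the 37 genes, in the order wildtype 30, wildtype 240, null 30, null 240 min for heat, and control 30, control 240, heated 30, heated 240 min for null against wildtype. Higher after heat, in place of 1, 16, 9 and 13: 2, 8, 9 and 5 with the scanner software's ratio; 12, 4, 12 and 14 in the authors' value table under its own labels; 0, 0, 0 and 0 with median centring; 3, 8, 10 and 9 with offset 10; 1, 0, 1 and 4 with slide as a block. Lower, in place of 1, 1, 2 and 1: 3, 1, 6 and 1 (scanner ratio), 2, 6, 2 and 8 (value table), 1, 1, 22 and 1 (median centring), 1, 1, 5 and 1 (offset 10), 1, 0, 2 and 1 (slide). In the value table each column matched the scanner file of the other time label. Its counts thus come from other arrays than the counts they stand beside. Its heat columns, already relative to the mean control, were tested against 0, so the spread of the controls is not in that test. Higher in null cells, in place of 2, 0, 2 and 0: 1, 0, 5 and 0 (scanner ratio), 4, 0, 1 and 0 (mean of probes), 5, 0, 0 and 0 (median centring), 1, 0, 2 and 0 (no filter), 0 throughout (slide). Lower in null cells, in place of 8, 1, 2 and 2: 6, 1, 3 and 1 (scanner ratio) and 0 throughout with median centring or slide as a block. Among all genes, 4592, 1762, 3707 and 1749 were called between the genotypes in either direction. With the scanner ratio this was 4767, 1181, 5303 and 1180, and with the mean of probes 4528, 1789, 3555 and 1668. With no filter it was 4290, 1633, 3482 and 1612, with median centring 2867, 833, 1543 and 1209. With slide as a block it was 1639, 467, 1719 and 371. The share of higher genes among all genotype calls was 43.1%, 36.8%, 51.8% and 36%, and 66.9%, 38.2%, 29% and 8.11% with median centring. The cause was not tested.

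With replicate number as a block, the counts higher after heat were 1, 17, 10 and 14 and those higher in null cells 2, 1, 3 and 0. Over all genes that fit called 2048, 4374, 4875 and 5391 after heat and 4714, 1841, 3781 and 1799 between the genotypes. Correlations of same-numbered arrays ran from -0.255 to 0.57 and were not over 0.1 for all 3 pairs in any comparison, so the numbers did not pair the samples. Interactions gave 0 calls under each alternative run. Slide could not be a term for the comparison of times, which gave 22 and 15 calls and 18 to 23 and 10 to 17 under the others.

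Leaving out 1 array gave ranges of 1 to 1, 9 to 13, 4 to 9 and 7 to 15 (higher after heat), 1 to 1, 1 to 1, 2 to 4 and 1 to 1 (lower), 1 to 3, 0 to 1, 1 to 5 and 0 to 0 (higher in null), 5 to 7, 0 to 1, 1 to 2 and 1 to 3 (lower in null), and 17 to 20 and 10 to 17 (times). Of 258 such refits of named genes, 223 kept the call, 35 lost it and 0 changed sign. Calls over all genes in these refits are not given here.

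With median centring, calls on the 37 genes changed sign for 12 of 14 after heat in null cells at 240 min, 8 of 11 in null cells at 30 min and 7 of 10 between the genotypes' controls at 30 min, and none of the calls in the other heat and genotype comparisons; of the 4 immunoproteasome-group calls each, 3 (240 min) and 2 (30 min) of those after heat in null cells did. In the comparisons for which the rule named a gene, these were Psma7 (heat, null 30 min, -0.15; null against wildtype controls at 30 min, 0.047), Psmb10 (heat, null, -0.15 and -0.065 at 30 and 240 min), Psme1 (-0.13 and -0.052), and at 240 min in null cells Psmb7 (-0.041), Psmb8 (-0.019), Psmd10 (-0.050) and Psme3 (-0.042). Psmb2 in wildtype cells at 240 min was -0.027 in the value table, and Psmb9 in null controls at 30 min 0.088 with slide as a block. With median centring the median heat difference of all genes was -0.18 in null cells at both times. Between the controls at 30 min the median of all genes was 0.04. A changed sign is therefore not always a changed side of the median of all genes.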
